A study of Homo sapiens with 9 samples.

Results

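HepG2 is a human cell line established from a liver tumour, and it is widely used because it still makes many of the proteins that hepatocytes secrete. The results below describe the transcriptome of HepG2 cells that carried a control short hairpin RNA (shCtrl), which is the reference against which the study set its knockdown of TRIB3, a stress-induced pseudokinase. The baseline was defined as every gene symbol of the expression table with a mean FPKM above 0 over the 3 shCtrl libraries. FPKM counts fragments per kilobase of gene, scaled to the depth of the library. By that rule 20914 of 24204 symbols were members, and the other 3290 were listed at 0 in all 3 shCtrl libraries but above 0 in at least 1 knockdown library.

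The series held 9 bulk RNA-seq libraries in 3 groups of 3 replicates. HepG2 cells were infected for 48 h with a lentivirus that expressed the control hairpin (shCtrl), 1 hairpin against TRIB3 (shTRIB3-1) or a second one (shTRIB3-2). The infected cells were then kept in puromycin, so all 9 libraries share the infection and the selection, and no uninfected cells were measured. The labels name high-glucose medium with fetal bovine serum for all 3 groups, and the target of the control hairpin was not given in the sources used here. No label says whether the replicates of a group were separate cultures, so their spread may be technical. No liver tissue was part of the series, so a low level here is a level in HepG2 and not a measured loss.

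A hepatocyte exports albumin, lipoproteins, clotting factors and complement, and it also clears ammonia, makes glucose and bile acids and oxidises drugs. These tasks are driven by a small circuit of transcription factors that includes HNF4A, the FOXA factors and CEBPA. Liver tumours commonly keep part of this programme and resume part of the fetal one, of which alpha-fetoprotein is the best known product. Many enzymes of sugar and amino acid metabolism exist as sets of paralogs, with a form typical of adult liver and another typical of fetal or dividing cells.

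Depth was even. The shCtrl libraries held 35785625, 36311029 and 35826138 fragments in replicates 1, 2 and 3, and 1 fragment on a gene of 1 kb was worth about 0.028 FPKM (0.0279, 0.0275 and 0.0279). All 18 hepatocyte markers that were checked had a mean FPKM of at least 1, with a median of 838. The label of a liver line held to that extent, but these markers cannot tell HepG2 from another hepatocyte-like line. Replicate 1 stood apart from the other two: chi-square per degree of freedom was 7.36 and 7.54 against replicates 2 and 3, and 3.13 between those. It also gave 6.11% of its fragments to mitochondrially encoded genes, against 5.30% and 5.31%. The targeted gene TRIB3 was at 67.9, 65.8 and 66.6 FPKM in the shCtrl libraries, at 32.7 to 34.1 under shTRIB3-1 and at 20.4 to 20.7 under shTRIB3-2. These groups did not overlap. On the log2 scale TRIB3 differed from shCtrl by -0.99 under shTRIB3-1 (adjusted p = 5.3e-11 by limma) and by -1.70 under shTRIB3-2 (adjusted p = 5.4e-13).

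Promoter sequences of 5 genes are shown first, 3 from liver genes that the cells expressed and 2 from genes that were close to 0. They were picked with their values known. ALB (albumin, 5213 FPKM) and AFP (alpha-fetoprotein, 195 FPKM) are neighbours on chromosome 4, and APOA2 (3252 FPKM) encodes a protein of high-density lipoprotein. LDHB (the heart-type lactate dehydrogenase subunit) and GSTP1 (a glutathione transferase of many epithelia) are the widely used genes near 0. Each line gives the 250 bases before the gene's start, from RefSeq on GRCh38.p14, read 5′ to 3′ on the gene's strand. In ALB (chr4:73404037-73404286, plus strand) and AFP (chr4:73435971-73436220, plus strand) the capitals mark GTTAAT, a motif known from liver gene promoters. APOA2 (chr1:161223629-161223878, minus strand) has no match and no capitals. In LDHB (chr12:21657843-21658092, minus strand) and GSTP1 (chr11:67583562-67583811, plus strand) the capitals mark CG dinucleotides, the bases at which DNA can be methylated.
ALB: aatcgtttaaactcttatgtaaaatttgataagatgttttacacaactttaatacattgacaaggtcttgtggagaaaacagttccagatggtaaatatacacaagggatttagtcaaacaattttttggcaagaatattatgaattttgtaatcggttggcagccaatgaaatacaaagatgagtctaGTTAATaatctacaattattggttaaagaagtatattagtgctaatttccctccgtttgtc
AFP: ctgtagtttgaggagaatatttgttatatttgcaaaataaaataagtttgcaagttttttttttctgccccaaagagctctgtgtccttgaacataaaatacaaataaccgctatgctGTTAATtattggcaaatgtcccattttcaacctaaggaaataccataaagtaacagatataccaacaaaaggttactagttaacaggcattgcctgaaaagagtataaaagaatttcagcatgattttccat
APOA2: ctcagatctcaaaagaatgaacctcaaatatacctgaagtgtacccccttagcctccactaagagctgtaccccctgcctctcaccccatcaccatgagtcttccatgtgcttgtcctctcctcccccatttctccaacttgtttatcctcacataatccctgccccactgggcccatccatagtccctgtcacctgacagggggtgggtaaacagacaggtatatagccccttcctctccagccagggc
LDHB: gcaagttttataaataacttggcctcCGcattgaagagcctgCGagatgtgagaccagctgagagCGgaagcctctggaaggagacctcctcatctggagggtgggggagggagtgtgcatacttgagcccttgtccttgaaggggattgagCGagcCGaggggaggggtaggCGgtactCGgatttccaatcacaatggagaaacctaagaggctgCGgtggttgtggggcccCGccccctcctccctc
GSTP1: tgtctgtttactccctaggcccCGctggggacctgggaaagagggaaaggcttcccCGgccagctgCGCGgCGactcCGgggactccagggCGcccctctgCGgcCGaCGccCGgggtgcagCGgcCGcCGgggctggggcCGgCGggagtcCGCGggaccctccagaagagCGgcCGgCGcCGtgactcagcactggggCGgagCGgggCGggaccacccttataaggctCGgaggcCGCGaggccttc

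The ALB and AFP stretches held 3 and 1 CG dinucleotides, with a GC content of 30% and 31.6%. APOA2 held 0 at 52.8% GC. LDHB held 9 CG dinucleotides at 58.0% GC, and GSTP1 held 28 at 74.8%. The motif GTTAAT, searched on both strands (also as ATTAAC), began 61 bases before the ALB start and 132 bases before the AFP start, and was not found in the APOA2, LDHB or GSTP1 stretch. Among 13342 protein-coding symbols with a sequence, 80.4% of those in the table, the median promoter had 19 CG dinucleotides and 4.26% held the motif. All 16 coagulation factor genes had a sequence, and 5 of them (31.2%) held it. Sequences were at hand for 161 of the 223 liver-enriched genes, under 80%, so no comparison of promoters was made for the whole list. A match of letters is a description of the window, not a site of binding, and methylation was not measured.

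The most abundant transcripts came from the mitochondrial genome, ferritin and secreted liver proteins. COX1, which encodes a core subunit of cytochrome c oxidase in mitochondrial DNA, led with 11089, 10544 and 9607 FPKM in replicates 1, 2 and 3. COX3 (9674 ± 883 FPKM, SD, n = 3), COX2 (8805 ± 443) and the complex I subunit ND4 (5888 ± 774) were of the same origin. In all, 11 of the 25 most abundant symbols were among the 13 protein genes of mitochondrial DNA, and those 11 held 15.3% of the summed FPKM. Replicate 1 was the highest of the 3 libraries for COX1, COX2, COX3, ND1, ND2, ND4, ND4L, ND5, CYTB and ATP6, and lay between the others for ND3.

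FTL, the light chain of the iron store ferritin, was the most abundant nuclear transcript, with 8989, 8805 and 8380 FPKM. Its partner FTH1, the heavy chain, was at 2345, 2184 and 2217, so the light chain held 79.5 ± 0.548% of the ferritin FPKM. Exons of genes on the opposite strand cover 63.2% of FTH1, and the strand setting of the counting was not given. The study's methods describe a strand-specific library kit and the labels name another kit, without saying whether it keeps strand. ALB (GRCh38 chr4:73397114-73421482, plus strand, GENCODE) followed among nuclear genes with 4929, 5397 and 5314 FPKM, and APOA2, a protein of high-density lipoprotein, with 3159, 3267 and 3330. AHSG (fetuin-A, an inhibitor of calcification), APOH, FGG (fibrinogen gamma chain), APOA1 and FN1 (fibronectin) brought the secreted proteins among the 25 to 7. The remaining 5 were the elongation factor EEF1A1 (2248 ± 33.1), the ribosomal proteins RPLP0 and RPS12, the glycolytic enzyme GAPDH (1330 ± 22.3) and GPX2 (1111 ± 5.11), a glutathione peroxidase known from the gut.

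**Figure D1:**
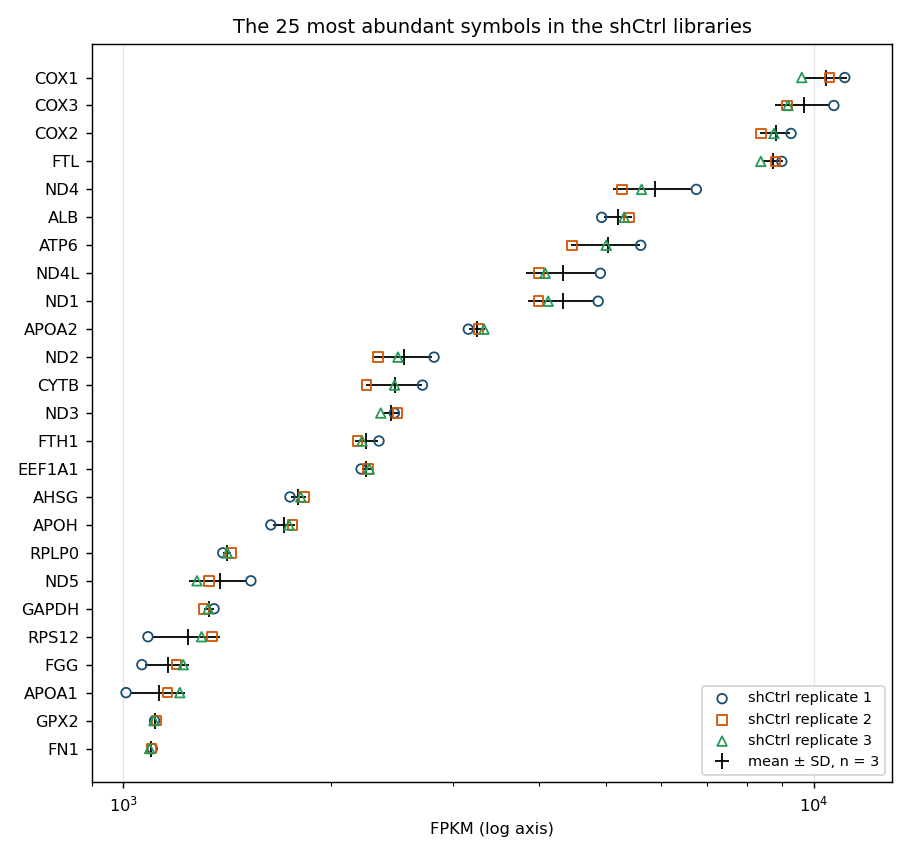
Each row is 1 of the 25 symbols with the highest mean FPKM in shCtrl, on a log axis; open symbols are the 3 libraries and the black bar is the mean ± SD. Replicate 1 is the highest library for most mitochondrial genes (COX1 at 11089 against 10544 and 9607) and the lowest for APOA1 (1009 against 1159 and 1207).

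The 10 most abundant symbols held 17.5 ± 0.973% of the summed FPKM (range 16.97 to 18.66), and 278 ± 10.4 symbols were enough for 50%. Because FPKM divides by length, short transcripts rank high on this scale. By fragments, COX1 (1.61%), ALB (1.19%) and APOB (1.19%), the very large protein of low-density lipoprotein, came first, and APOB was only the 42nd symbol by FPKM. Of all symbols, 34 reached a mean of 1000 FPKM and held 26.8% of the sum, 479 lay between 100 and 1000, 4562 between 10 and 100, and 5819 between 1 and 10. A further 3305 lay between 0.1 and 1, and 6715 were above 0 but under 0.1. Those last 2 classes together held under 0.4% of the summed FPKM (0.339% and 0.0433%).

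Protein-coding genes made up 98.5 ± 0.0350% of the summed FPKM, and long non-coding RNA genes 1.02 ± 0.0275%. A mean of at least 1 FPKM was reached by 10174 of 16596 protein-coding symbols and by 506 of 6231 long non-coding ones. SNHG5, a host gene of small nucleolar RNAs, was the most abundant non-coding symbol with 196, 232 and 233 FPKM. NORAD, a cytoplasmic RNA that binds Pumilio proteins, was at 124, 135 and 135. LOC105373974 (119 ± 1.28), SNHG29 (100 ± 4.16) and ZFAS1 (86.7 ± 3.60) followed. In SNHG5, SNHG29 and ZFAS1 the rank rests on the length used. Taken per canonical transcript, SNHG29 ranked 96 among all symbols, SNHG5 768 and ZFAS1 3558.

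Spread among the replicates was summarised for abundant symbols. Over the 5075 symbols with a mean of at least 10 FPKM the median coefficient of variation was 3.198%, and the central 90% lay between 0.763% and 8.59%. The most variable of these was ATP8, a mitochondrial gene of 207 bases that overlaps ATP6, with 1033, 374 and 674 FPKM. SNHG25, a short non-coding host gene, was at 13.1, 21.3 and 31.4. EIF3C, a translation initiation subunit with a near-identical copy, was at 14.2, 11.7 and 7.07, and the complement gene C4B, near-identical to C4A, was at 27.4, 20.6 and 15.0. C4A was at 13.5, 19.4 and 17.05, so the split between the 2 copies differed among libraries and neither value is certain. FOSL1, a subunit of the AP-1 transcription factor, was the fifth, at 12.9, 9.58 and 8.92.

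Of the 227 liver-enriched genes on a list in 13 roles, 223 were in the table. A mean of at least 1 FPKM was reached by 173 of the 223 (77.6%), against 45.0% of all symbols and 10174 of the 16596 protein-coding ones, and 39 reached 100 FPKM. Their median was 10.6 FPKM, against 0.424 over the whole table. At the other end 28 were under 0.1 FPKM, 9 of them at 0 in all 3 shCtrl libraries. CRP, APCS, APOC2 and APOC4 were not analysed here.

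**Figure D2:**
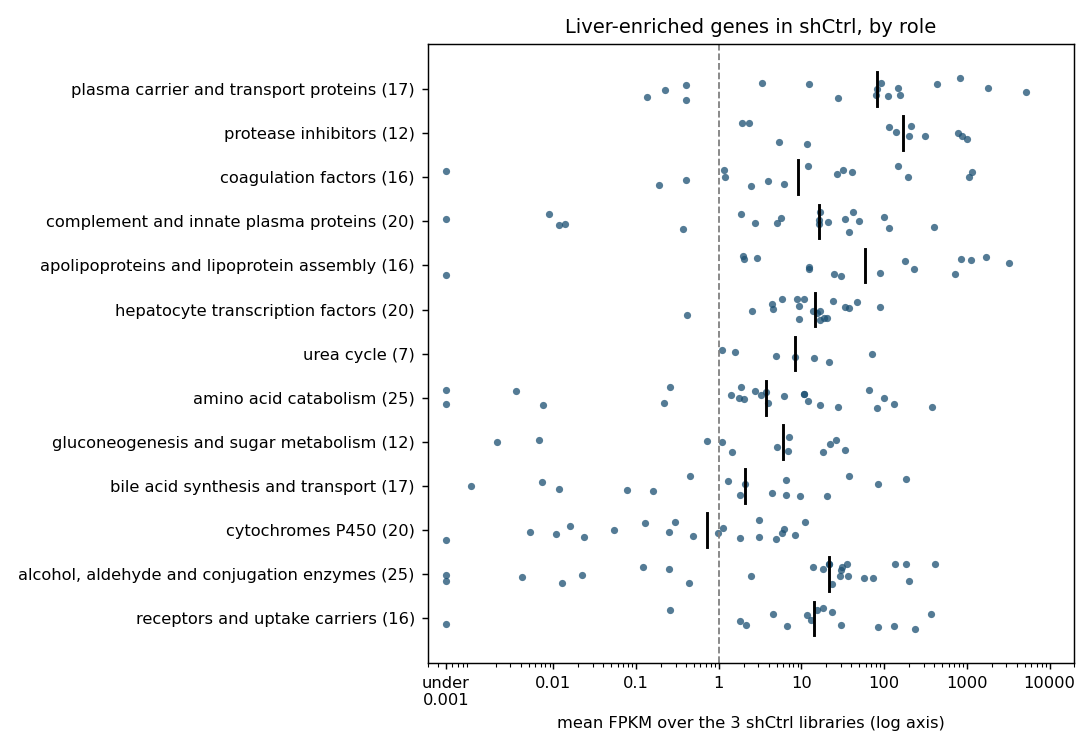
Each point is 1 liver-enriched gene, placed at its mean FPKM over the 3 shCtrl libraries (log axis, values under 0.001 and at 0 drawn at the left edge); rows are roles with the number of genes in the table, black bars are medians and the dashed line is 1 FPKM. Protease inhibitors all lie above 1 FPKM with a median of 170, while the median of the cytochromes P450 is 0.728.

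By median FPKM the highest roles were protease inhibitors (170), plasma carriers (82.6) and apolipoproteins with lipoprotein assembly (59.0). Complement and innate plasma proteins (16.4) and coagulation factors (9.11) were lower. All 12 protease inhibitors reached 1 FPKM, led by SERPINA1 (alpha-1-antitrypsin) with 1027, 994 and 1015, A2M (alpha-2-macroglobulin) with 830, 889 and 903, and ITIH2 with 772, 787 and 803. Among 17 plasma carriers ALB, AHSG and AMBP (837 ± 44.4) were the highest. In contrast GC, the vitamin D-binding protein, was at 0.127, 0.139 and 0.141 and HRG at 0.221 ± 0.0470. TTR, the thyroxine carrier transthyretin, was at 26.2, 26.6 and 30.9.

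Of 16 apolipoprotein and lipoprotein assembly genes, 15 reached 1 FPKM. After APOA2 came APOH (1635, 1757 and 1737) and APOA1. APOB was at 840 ± 8.58 and APOE at 712 ± 32.9. MTTP, which loads lipid onto APOB, was at 24.5 ± 1.73, while APOA4 was near the threshold with 1.99, 1.72 and 2.20. LPA, the apolipoprotein(a) gene, was listed at 0 in all 3 libraries, which allows up to 0.0264 FPKM at 3 fragments over the group. Coagulation factors were split. FGG (1064, 1194 and 1221) and FGA (975, 1085 and 1108) led, although per canonical transcript FGA was at 1872 and FGG at 1179. FGB was at 182, 201 and 204, and F2 (prothrombin) at 147 ± 4.41. Prekallikrein KLKB1 (0.189 ± 0.0678) and plasminogen PLG (0.405 ± 0.0680) were low, and F9, factor IX, was at 0 (up to 0.00996). Bounds from a count of 0 cover counting error only.

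Complement differed by component. C3, the central component, was at 393, 404 and 404 FPKM. CFI (116 ± 3.74) and CFB (100 ± 6.87), which control and carry its activation, came next. C9 was at 0, and the acute-phase genes SAA1 and SAA2 had 1 and 3 fragments. HAMP, the iron hormone hepcidin, was at 16.6, 16.6 and 16.2.

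The transcription factors of the hepatocyte circuit were nearly all present: 19 of 20 reached 1 FPKM. NR0B2 (the bile acid-induced repressor SHP) led with 92.4, 85.8 and 89.0, HNF4A was at 48.3, 45.5 and 46.5, CEBPB at 37.0 ± 0.144 and CEBPA at 34.0 ± 0.805. The exception was NR1I3, the drug-sensing receptor CAR, at 0.407 ± 0.0340. Its relative NR1I2, the receptor PXR, was at 9.40 ± 0.145.

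Urea cycle genes all reached 1 FPKM but spread widely. ASS1 was at 72.8, 69.2 and 69.8 and ASL at 21.8 ± 0.458. CPS1, the mitochondrial entry step, was at 8.25 ± 0.349. The steps on either side of the cycle were the lowest, with OTC at 1.84, 1.49 and 1.42 and ARG1 at 1.22, 0.955 and 1.08. In amino acid catabolism 19 of 25 genes reached 1 FPKM. The tyrosine route was high, with HPD at 402, 370 and 352 and HGD at 64.9 ± 1.25, as was MAT1A (132 ± 2.03), the adult liver enzyme that makes S-adenosylmethionine. TDO2, the first step of tryptophan breakdown, and SDS, serine dehydratase, were at 0 (up to 0.0165 and 0.0177 FPKM), and GLYAT had 1 fragment.

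Gluconeogenesis and liver sugar handling were low to moderate. PYGL (liver glycogen phosphorylase) led with 34.0 ± 0.664, then TKFC (26.4 ± 0.642) and the fructose enzyme KHK (21.9 ± 1.57). G6PC1, which releases free glucose, was at 7.11 ± 0.705. PCK1 was at 1.46 ± 0.0456, FBP1 at 0.717 ± 0.120, and the liver glycogen synthase GYS2 had 4 fragments. In bile acid metabolism the canalicular pump ABCC2 was at 194, 182 and 180 and CYP27A1 at 83.8 ± 2.31. CYP7A1, the first step of the classical synthesis route, was at 6.54 ± 0.375. The uptake carrier SLC10A1 (0.0784 ± 0.0553) and the bile salt export pump ABCB11 (6 fragments in all, 0.00727 FPKM) were close to 0.

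Drug-oxidising enzymes were the weakest role. Of the 20 cytochromes P450 on this list, which leaves out those of bile acid synthesis such as CYP27A1, 9 reached 1 FPKM, and the highest was CYP4F3, a fatty acid hydroxylase, with 11.2, 10.7 and 11.1. CYP4F2 (8.402 ± 0.345) and CYP2D6 (6.20 ± 0.455) came next. CYP3A4, the main drug-metabolising form of adult liver, was at 0.181, 0.0396 and 0.161. CYP2E1 was at 0.818, 0.987 and 1.12, CYP1A2 at 0.299 ± 0.0631, and CYP2C19 was at 0 (up to 0.00687). The role of alcohol, aldehyde and conjugation enzymes was stronger, with a median of 21.7 FPKM against 0.728 for the cytochromes P450. ALDH1A1, a retinal dehydrogenase, was at 417 ± 3.64, the carboxylesterase CES1 at 197 ± 1.38, the sulfotransferase SULT2A1 at 182 ± 3.19 and EPHX1 at 134 ± 3.61. NNMT and NAT2 were at 0 (up to 0.0124 and 0.0160 FPKM), ADH1B at 0.0221 ± 0.00394 and ADH1C had 2 fragments.

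Of 16 genes listed as receptors and uptake carriers 14 reached 1 FPKM, with a median of 14.3. The highest of the list, IGFBP1, is a secreted binder of insulin-like growth factors and was at 329, 374 and 390, and the asialoglycoprotein receptor chains ASGR1 and ASGR2 at 235 ± 7.70 and 132 ± 5.08. FGFR4, the receptor for FGF19, was at 84.6 ± 1.79. GHR, the growth hormone receptor, was at 0 in all 3 libraries (up to 0.00454).

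Genes that mark the zones of the liver lobule differed little at the threshold of 1 FPKM, which 11 of 15 pericentral and 10 of 14 periportal ones reached. Of the pericentral genes 10 had a mean of at least 10 FPKM, against 3 of the periportal ones. NOTUM (72, 70.8 and 70.7), LGR5 (43.4, 44.6 and 47.9), AXIN2 (20.5 ± 0.526), RNF43 (15.4 ± 0.382) and ZNRF3 (12.6 ± 0.362) are all genes that Wnt signalling induces. Exons of other genes on the same strand cover 68.4% of RNF43 and 25.3% of AXIN2. LECT2, also on the pericentral list, was at 0.117 ± 0.0306. The glutamine and ammonia genes RHBG (46.2 ± 1.18) and GLUL (34.8 ± 0.971), typical of cells around the central vein, were present as well. Of the pericentral cytochromes, CYP7A1 was at 6.54 ± 0.375, while CYP2E1, CYP1A2 and CYP3A4 had means under 1 FPKM.

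Oncofetal genes were a mixed set as well. Of 42 on the list 39 were in the table, 27 of them (69.2%) reached 1 FPKM, and the median was 15.7. Over all symbols 45.0% reached 1 FPKM, and 10174 of the 16596 protein-coding ones did. Among fetal liver proteins and growth factors PEG10, a retrotransposon-derived gene expressed from the paternal copy, was at 311, 311 and 316, and AFP at 181, 201 and 204. IGF2, the fetal growth factor, was at 135, 129 and 135, with 43.2% of its exons shared with a readthrough gene on the same strand. PEG3 was at 85.7, 91.8 and 94.2. GPC3, a heparan sulfate proteoglycan used as a liver tumour marker, was at 11.2 ± 0.707. Others were near 0: H19 had 16 fragments in all, from 3 to 9 per library (0.0569 FPKM), FGF19 was at 0.101 ± 0.0710, and MEG3 was at 0 (up to 0.00268).

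RNA-binding and reprogramming factors of the fetal programme ranged from 0.00696 to 45.0 FPKM, and 10 of 12 reached 1 FPKM. HMGA2 (43.1, 45.8 and 46.0) and SOX9 (39.2, 40.3 and 44.1) led. The let-7 regulated RNA-binding proteins IGF2BP1 (32.5 ± 0.738), IGF2BP3 (22.4 ± 0.382) and IGF2BP2 (21.6 ± 0.352) were all present. LIN28B, which blocks let-7 processing, was at 15.7 ± 0.471, while its paralog LIN28A had 3 fragments. TRIM71, a ligase of embryonic stem cells, was at 29.4 ± 0.821. SALL4 stayed under 1 FPKM (0.497 ± 0.0403) and TERT was at the threshold with 1.00, 1.08 and 1.02.

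The other tumour markers of the oncofetal list spread from close to 0 to 433 FPKM, with a median of 2.55. NQO1, a quinone reductase of the NRF2 response, was at 422, 436 and 442, KRT19 at 246, 231 and 225, AKR1B10 at 222, 205 and 203, S100P at 150, 177 and 159 and EPCAM at 145, 155 and 158. TSPAN8 (2.55 ± 0.251), CD24 (1.26 ± 0.109) and SPINK1 (0.505 ± 0.0815) lay between. CD44 had 3 fragments and PROM1 7. GOLM1, a Golgi protein, was at 0.273, 0.261 and 0.255, and CD47 at 0.182 ± 0.0534. Of 30 cancer-testis antigens on the list 18 were in the table. Of these 18, 3 reached 1 FPKM: PRAME (4.53 ± 0.417), MAGEA3 (2.39 ± 0.0852) and MAGEA6 (1.26 ± 0.345). MAGEA3 and MAGEA6 are near-identical, so their split is uncertain. The other 15 were under 1, 5 of them at 0.

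**Figure D3:**
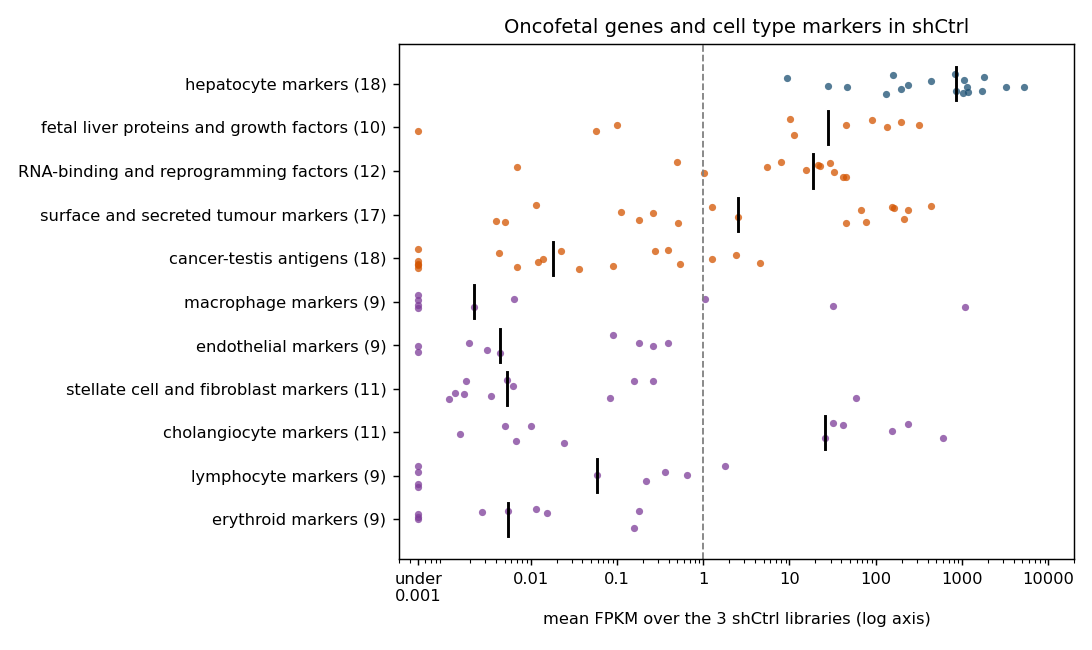
Each point is 1 gene at its mean FPKM over the 3 shCtrl libraries (log axis, values under 0.001 and at 0 drawn at the left edge), with hepatocyte markers in blue, tumour-related lists in orange and markers of other cell types in purple; black bars are medians and the dashed line is 1 FPKM. The hepatocyte markers have a median of 838 FPKM, against 15.7 for the 39 oncofetal genes and 0.0182 for the 18 cancer-testis antigens in the table.

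Markers of other liver cell types were mostly absent. Of 72 on the list 58 were in the table, and of these 58, 47 were under 1 FPKM and 13 at 0. LYZ, the lysozyme of macrophages and glands, was a strong exception with 1020, 1077 and 1145 FPKM, and CD68 was at 31.8 ± 3.09. PTPRC, MARCO, VSIG4 and TYROBP of the macrophage list were at 0, and CD163 and CSF1R had 3 and 1 fragments. FCER1G of the same list was at 0.805, 0.840 and 1.47 FPKM. Exons on the opposite strand cover 34.7% of LYZ, and exons of other genes on the same strand cover 81.6% of CD68. ACTA2, an actin of muscle and activated stellate cells, was at 58.6 ± 3.87, while COL1A1, COL1A2 and COL3A1 had 4, 1 and 1 fragments. No endothelial marker reached 1 FPKM. Bile duct markers were divided: SPP1 (608, 583 and 597), KRT19, EPCAM, SOX9, ANXA4 (31.8 ± 0.517) and SLC4A2 (25.6 ± 0.935) were present, and KRT7, AQP1, MUC1 and CFTR were under 0.1 FPKM.

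Choice among paralogs was described in 44 groups that had a leading member of at least 1 FPKM and a second member in the table. In 23 of these groups 1 gene held over 90% of the group's FPKM. The library ranges of the leading and the second gene overlapped in only 1 of the 44, the actins ACTB (1050) and ACTG1 (1017). The table has 1 line per symbol, so transcript isoforms of a gene could not be told apart.

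Among glycolytic enzymes the leading form was that of muscle and tumours at some steps and that of liver at others. LDHA, the muscle-type lactate dehydrogenase subunit, was at 399, 437 and 425 FPKM. LDHB was at 0.0143, 0.0141 and 0.0286, or 4 fragments in all, and the testis form LDHC was at 0. Exons on the same strand cover 33.4% of LDHB. PKM, the pyruvate kinase of muscle and tumours, was at 209, 204 and 211 against 7.03, 6.39 and 7.11 for the liver form PKLR, a share of 96.8 ± 0.129%. Among phosphofructokinases the liver form PFKL held 93.0 ± 0.829% (49.4 ± 1.38 FPKM).

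HK2 (25.2, 27.1 and 26.4 FPKM) and HKDC1 (24.6, 24.6 and 22.8) shared the hexokinases. HK1 was at 0.235 ± 0.0219 and HK3 was not analysed here. The libraries of the 2 genes did not overlap, but per canonical transcript the order turned (27.3 against 27.96), so the leader depends on the length used. Glucose transport was led by SLC2A1 (98.2, 90.03 and 91.1), the form of red cells and tumours, over SLC2A3 (29.4 ± 1.48) and the liver form SLC2A2 (5.00 ± 0.110).

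The mitochondrial PCK2 (41.4, 43.3 and 44.5) held 96.7 ± 0.108% of phosphoenolpyruvate carboxykinase, over the cytosolic PCK1. The brain form of glycogen phosphorylase, PYGB (45.8, 44.3 and 43.1), was above the liver form PYGL (33.6, 33.6 and 34.7) in every library. GYS1, the glycogen synthase of muscle, held 99.9 ± 0.0548% over the liver form GYS2 (4 fragments). In amino acid metabolism the balance varied. MAT1A, the adult liver form, held 72.9 ± 0.343% over MAT2A (49.1 ± 1.43 FPKM), and ARG2 held 92.0 ± 0.873% over the liver form ARG1.

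In lipid metabolism the leading forms were mostly those of liver. CPT1A held 99.7 ± 0.212% of carnitine palmitoyltransferase 1 (30.9 ± 0.823 FPKM), and FABP1 (514, 585 and 667) held 97.3 ± 0.438% of the fatty acid-binding proteins. The acyl-CoA synthetases were an exception, with ACSL4 (133, 136 and 145) above ACSL5 (64.8 ± 0.803), ACSL3 (46.1 ± 0.643) and ACSL1 (24.8 ± 0.0729), which is the main form of liver. Of 14 glutathione transferases in the table GSTO1 led with 206, or 40.1 ± 1.26% of the group, although MGST1 (115) was ahead per canonical transcript. GSTP1 was at 0, 0.111 and 0, or 3 fragments in 1 library.

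**Figure D4:**
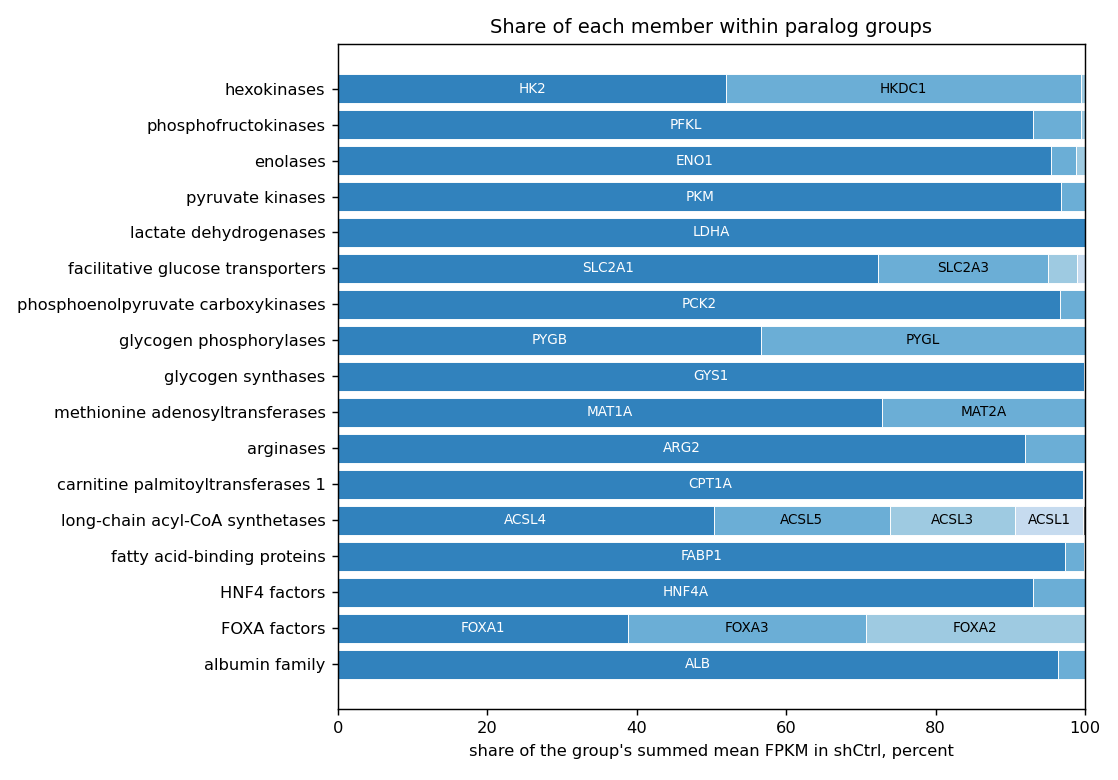
Each bar is a group of paralogs, split by the share of each member in the group's summed mean FPKM over the 3 shCtrl libraries (x axis, percent); the darkest block on the left is the leading gene. LDHA fills the lactate dehydrogenase bar, PKM 96.8% of the pyruvate kinases and PCK2 96.7% of its group, while HK2 holds 52.0% of the hexokinases.

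The 3290 symbols at 0 in all 3 shCtrl libraries included 1679 long non-coding and 1325 protein-coding ones. Values near 0 have a limit of their own. Some genes that every cell uses were also close to 0, among them the ribosomal protein gene RPL36A (0.0488 FPKM) and MRPS24 of the mitochondrial ribosome (0.0558), which were named after their values were seen. These 2 had 4 fragments each. Of the 50 liver-enriched genes under 1 FPKM, 8 share over 20% of their exon bases with another gene on either strand, and none of the 12 oncofetal genes under 1 FPKM do. The part that counting rules played in these low values was not tested.

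How the baseline compared with the knockdown libraries was tested with limma on log2(FPKM + 0.1), and calls needed both a log2 fold change past 1 in size and an adjusted p under 0.05. Of 11265 symbols tested, 5.39% were called higher and 6.1% lower under shTRIB3-1, and 6.06% higher and 6.27% lower under shTRIB3-2. The excess of lower calls turned when each library was centred on its median, to 687 higher and 576 lower, and 754 higher and 644 lower. Both comparisons share the 3 shCtrl libraries, so they are not independent of each other. Of the 10894 symbols at 1 FPKM or more in shCtrl, 10318 were at 1 FPKM or more under both hairpins. A median log2 fold change of -0.06 and -0.03 lay over all tested symbols, and rescaling to TPM moved it to -0.11 and -0.06.

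Among the 200 most abundant symbols, 6 were called higher and 10 lower under shTRIB3-1, and 5 higher and 16 lower under shTRIB3-2. These were 3% and 5%, and 2.5% and 8%, so no more than the share over all tested symbols apart from the falls under shTRIB3-2. Over all 11265 tested symbols 487 were called higher and 534 lower under both hairpins. Among the 200 most abundant, 4 were higher and 6 lower under both (2% and 3%). The 4 that rose were LGALS1 (galectin-1), PLIN2 (a coat protein of lipid droplets), KRT19 and TMSB10 (an actin-binding peptide). LGALS1 was at 257 to 276 FPKM in shCtrl, 901 to 969 under shTRIB3-1 and 949 to 1040 under shTRIB3-2, a rise of 1.80 ± 0.045 and 1.90 ± 0.045 on the log2 scale (SE, adjusted p = 1.1e-11 and 4.5e-12). PLIN2 went from 215 to 228 FPKM in shCtrl to 547 to 574 and 707 to 741. For neither gene did the groups overlap.

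The 5 largest of the 6 falls were SERPINA3, SPP1, PLA2G2A, PCNA and FGG. SERPINA3, the acute-phase inhibitor alpha-1-antichymotrypsin, was at 272, 321 and 332 FPKM in shCtrl, at 19.3 to 20.6 under shTRIB3-1 and at 19.1 to 21.6 under shTRIB3-2, so its level was 0.0647 and 0.0653 times the baseline (adjusted p = 8.3e-13 and 5.4e-13). SPP1, which encodes osteopontin, fell to 180 to 181 and 120 to 125. PCNA, the sliding clamp of DNA replication, fell from 217 to 223 FPKM to 70.1 to 76.0 and 55.0 to 57.2. APOH was called lower under shTRIB3-1 only, with log2 fold changes of -1.09 and -0.84, and the difference between the hairpins was not tested.

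Of 172 liver-enriched genes that were tested, 29 were called lower and 11 higher under shTRIB3-1 (16.9% and 6.40%), and 22 lower and 16 higher under shTRIB3-2 (12.8% and 9.30%). Over all tested symbols the shares were 6.1% lower and 5.39% higher under shTRIB3-1, and 6.27% and 6.06% under shTRIB3-2. The median log2 fold change of the list was -0.40 and -0.09, against -0.06 and -0.03 over all tested symbols. Members called lower under both hairpins numbered 20, and those called higher 11, against 534 and 487 of all 11265 tested symbols. Complement and innate plasma proteins had the most: 7 of 15 tested were called lower under shTRIB3-1 and 5 under shTRIB3-2, and none higher. Hepcidin HAMP fell from 16.2 to 16.6 FPKM in shCtrl to 0.354 to 0.864 and 0.637 to 0.936 (adjusted p = 6.2e-09 and 7.4e-09), and C5 from 48.1 to 52.4 to 9.61 to 10.9 and 11.8 to 13.1. Haptoglobin HP, the plasma carrier of free haemoglobin, went from 74.4, 85.9 and 87.4 FPKM to 5.56 to 6.28 and 6.39 to 7.99.

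Rises among liver genes were led by genes that were low at baseline. APOA4 was at 1.72 to 2.20 FPKM in shCtrl, 146 to 151 under shTRIB3-1 and 188 to 205 under shTRIB3-2, a log2 fold change of 6.16 ± 0.067 and 6.58 ± 0.067 (SE, adjusted p = 2.0e-14 and 1.1e-14). PCK1, at 1.42 to 1.51 FPKM in shCtrl, was at 17.4 to 18.2 and 8.39 to 9.12. TTR rose from 26.2 to 30.9 FPKM to 58.6 to 59.9 and 90.1 to 92.9, and MTTP from 22.6 to 25.9 to 65.8 to 67.4 and 63.0 to 65.1. ALB itself was not called: 4965 to 5277 FPKM under shTRIB3-1, where it overlapped shCtrl, and 6584 to 6715 under shTRIB3-2, a log2 fold change of 0.35 ± 0.051.

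Of 29 oncofetal genes tested, 10 were called under each hairpin: 6 higher and 4 lower under shTRIB3-1, and 5 higher and 5 lower under shTRIB3-2. That is 20.7% and 13.8%, and 17.2% and 17.2%, of a short list, against 5.39% and 6.1%, and 6.06% and 6.27%, of all tested symbols. The genes called higher under both hairpins include GOLM1 (0.255 to 0.273 FPKM in shCtrl) and SPINK1 (0.454 to 0.599). These passed the filter of 1 FPKM only through the knockdown libraries, so their calls are no evidence about the list. KRT19 (606 to 653 and 614 to 627 FPKM), the tight junction protein CLDN6 (144 to 150 and 161 to 173, from 65.4 to 69.4) and CD24 were called higher under both. PEG3 (27.0 to 30.2 and 31.4 to 32.2) and HMGA2 (20.7 to 22.6 and 20.8 to 22.7) were called lower under both. AFP was not called, at 190 to 199 FPKM under shTRIB3-1 and 309 to 317 under shTRIB3-2, with log2 fold changes of -0.02 ± 0.043 and 0.68 ± 0.043 (SE). Among cancer-testis antigens SPANXB1, at 0.177 to 0.480 FPKM in shCtrl, rose to 26.15 to 34.6 under shTRIB3-1 and 4.25 to 4.96 under shTRIB3-2. SPANXB1 also passed the filter only through the knockdown libraries.

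**Figure D5:**
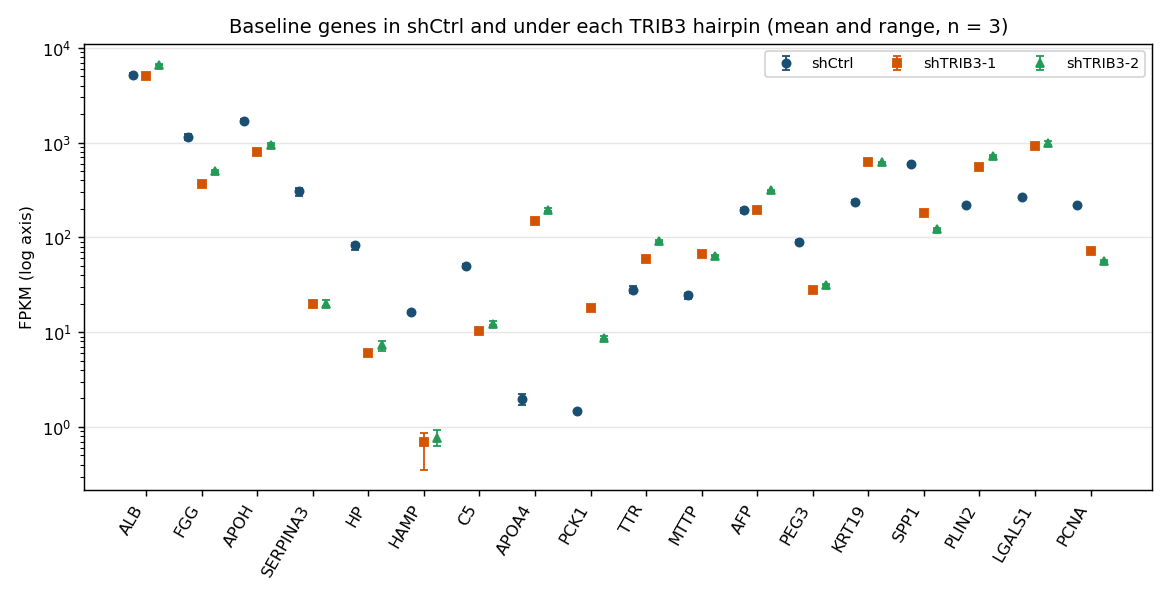
Points give the mean FPKM of 3 libraries and bars the lowest and highest library (log axis), for genes of the baseline in shCtrl, shTRIB3-1 and shTRIB3-2. ALB stays between 4929 and 6715 FPKM in all 9 libraries, while SERPINA3 falls from 308 to about 20 (19.8 and 19.98) and APOA4 rises from 1.97 to 148 and 197.

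Markers of other cell types also differed between the groups. The labels name HepG2 cells and no other cell type, so a marker here is not by itself a sign of other cells. In bulk RNA, fewer cells of a type and less RNA per cell cannot be told apart. The summed FPKM of 9 macrophage markers was 1055 to 1178 in shCtrl, 532 to 559 under shTRIB3-1 and 613 to 651 under shTRIB3-2, and LYZ made up nearly all of it. PTPRC, MARCO, VSIG4 and TYROBP, also on the macrophage list, were at 0 in the baseline. The 9 endothelial markers summed to 0.847 to 1.09 FPKM in shCtrl, 7.01 to 7.18 and 3.57 to 3.85, most of it from LYVE1. The 11 stellate cell and fibroblast markers summed to 56.005 to 63.4, 40.3 to 42.9 and 54.7 to 58.1. The 11 cholangiocyte markers summed to 1066 to 1097, 1021 to 1061 and 977 to 993. Sums of 9 lymphocyte markers (2.72 to 3.35, 5.40 to 6.70 and 8.42 to 9.14) and 9 erythroid markers (at most 2.07 in any library) stayed low. The part of these shifts in the results above was not tested.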

How the data were processed

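The data were FPKM values of 24204 gene symbols in 9 HepG2 libraries, a single table deposited by the authors. The submitters' processing notes name HTSeq, R 3.2.0 and GRCh38, without their roles. The aligner settings behind this table, the annotation release and the strand setting were not given in the sources used here. All 172769 values above 0 were whole multiples of 1 fragment within 0.02, which gave the fragment totals (34206726 to 36311029 per library) and gene lengths; 0.0515% to 0.0535% of a library's fragments lay outside the table. Lengths solved from a few fragments may be too short by a whole factor.

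Symbols were matched to RefSeq (95.5%) and GENCODE release 44 (80.2%) for type, position and overlap. Hairpins were compared with shCtrl by limma 3.58.1 in R 4.3.3, on log2(FPKM + 0.1) over all 9 libraries, for symbols at 1 FPKM or more in at least 3 libraries. Fold changes are on that scale and understate the change of low genes. P-values were Benjamini-Hochberg adjusted over all symbols tested and measure the spread between these libraries only. An exact permutation test of 3 against 3 libraries cannot go below p = 0.1, so none is given. Steps were tested on simulated data. Other work used Python 3.11.15 and pandas 2.3.3.

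Members and lists were chosen with earlier results of these data known, and the lists were written from general knowledge. Genes were named by rule: the 25 most abundant symbols, members of the lists, the 5 most variable symbols at 10 FPKM or more, the 5 most abundant non-coding symbols, TRIB3, and the largest rises and falls called under both hairpins among the 200 most abundant. Alternatives were another pseudocount, filter, scaling, threshold and model, leaving out each library, and 2 added after seeing the data (canonical length, overlapped members left out). Intervals and bounds cover counting error only. Some genes of the lists are not reported here.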

Additional observations from a re-analysis of the deposited data

How the results depend on the processing

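Counts of called symbols (1294 and 1389 for the 2 hairpins) moved with the pseudocount and the filter: 780 under shTRIB3-1 and 888 under shTRIB3-2 at a pseudocount of 1, where the oncofetal list had 6 calls under shTRIB3-2. Testing every symbol with a mean above 0 gave 1999 calls under shTRIB3-1 and 1941 under shTRIB3-2, with more symbols higher than lower (1085 and 914, 1011 and 930). Leaving out 1 library at a time gave 1258 to 1333 and 1385 to 1426 calls. It gave 28 to 29 and 20 to 23 liver-enriched genes called lower, 11 and 14 to 16 called higher, and 9 to 10 oncofetal genes called under either hairpin. Same-numbered libraries deviated together weakly at most (correlations of -0.07 to 0.09 over 9 pairs, against -0.08 to 0.05 over 18 other pairs). Between shTRIB3-1 and each of the other groups, every same-numbered pair was above every other pair. Between shCtrl and shTRIB3-2 this was not so. The numbers were not taken as pairs. With a replicate block there were 1295 and 1389 calls. No symbol was at 0 in all 9 libraries (0), and 4086 to 4115 symbols were at 0 when 1 shCtrl library was left out. Without 1 of them 20089 to 20118 symbols were detected and 10882 to 10887 reached 1 FPKM, as did 172 to 174 liver-enriched, 27 oncofetal and 3 cancer-testis genes. Cancer-testis genes at the threshold numbered 0 at a threshold of 5 and 5 after rescaling to TPM. The share of the 10 most abundant symbols was 9.23% without mitochondrial genes, 9.11% of fragments, 15.2% per canonical transcript length (chosen after seeing the data), and 16.98% to 17.82% without 1 library. Of 700 values for named genes, 693 kept their direction and side of the threshold, none reversed, 6 fell short of it (HMGA2 under shTRIB3-1 and GPX2 under shTRIB3-2) and 1 passed it (TRIB3 under shTRIB3-1, log2 fold change -1.04 after rescaling to TPM). The causes were not tested. Depth limits values of a few fragments, which cannot be told from 0.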

Other observations

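Imprinted genes, which are expressed from 1 parental copy, were looked at after the values of PEG10, IGF2, PEG3 and H19 had been seen, so no test was made. Of 15 measured paternally expressed genes 7 reached 1 FPKM, and of 11 maternally expressed genes 4 did. PEG10 (313 ± 2.75 FPKM, SD, n = 3), IGF2 (133 ± 3.44), PEG3 (90.5 ± 4.36), MEST (14.1 ± 0.261) and DLK1 (10.0 ± 0.351) were the highest paternally expressed ones. The non-coding neighbours of IGF2 and DLK1 that are expressed from the maternal copy were near 0: H19 at 0.0569 ± 0.0338 and MEG3 at 0. CDKN1C, a maternally expressed inhibitor of the cell cycle, was at 0.00953 ± 0.00825, while its neighbours SLC22A18 (10.8 ± 0.778) and PHLDA2 (8.78 ± 0.709) were expressed. NDN and NNAT, both paternally expressed, were at 0, so the levels did not follow parental origin throughout. Alleles were not measured.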
